A study of Homo sapiens with 12 samples.

Results

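NRF2, encoded by NFE2L2, its inhibitor KEAP1 and 8 genes known as antioxidant targets of NRF2 were examined in CAL-29 and 5637 bladder carcinoma cells depleted of KMT9α. The members were the gene symbols NFE2L2, KEAP1, NQO1, HMOX1, GCLC, GCLM, TXNRD1, SRXN1, SLC7A11 and OSGIN1, which are 10 of the 23064 gene symbols in the count tables. They were chosen by their names, with earlier results of these data known, and each was represented by the transcript row with the most counts. All 10 passed the filter on low counts in both lines.

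KMT9α, encoded by N6AMT1, is the catalytic subunit of a histone H4 lysine methyltransferase, and the RNAseq libraries address which genes respond to its depletion in bladder cancer cells. CAL-29 and 5637 are established lines of human bladder carcinoma. In each line, 3 libraries came from cells transfected with a control siRNA (siCtrl) and 3 from cells transfected with an siRNA against KMT9α, siKMT9α#1, with RNA taken 3 days later. No other agent or allele was given for any group. The lines differed in culture medium, transfection reagent and siRNA concentration, so line, medium and transfection cannot be told apart. The tables name the siRNA si270 and the sample labels do not name it, and its identity as siKMT9α#1 was taken from the results of the study. Nothing states that the 3 libraries of a group came from separate cultures, so the p-values measure the spread between these libraries, which may be technical.

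NRF2 is a basic leucine zipper transcription factor that KEAP1, an adaptor of a cullin ubiquitin ligase, holds at a low level in unstressed cells. Electrophiles and oxidants modify cysteines of KEAP1, NRF2 then escapes degradation, pairs with a small MAF protein and binds antioxidant response elements of genes for glutathione synthesis, thioredoxin reduction and detoxification. Much of this control acts on the protein, so transcript levels of NFE2L2 and KEAP1 do not measure NRF2 activity. Mutations of KEAP1 or NFE2L2 that raise NRF2 occur in bladder cancer, and whether these lines carry one was not examined here.

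Because the members are known as targets of a factor with a defined binding motif, their promoter windows were searched for the core letters of the antioxidant response element, TGACNNNGCA, on both strands from 1000 bases before to 100 after the start of the reference transcript. NQO1, GCLC and GCLM held 1 match each, which is 3 of 10 members, and 10.1% of 18922 genes held the motif in such a window. The matches are printed 5′ to 3′ from the GRCh37 genome with the motif in capitals and 10 bases on each side.
NQO1, chr16:69760899-69760928, minus strand: gcagtcacagTGACTCAGCAgaatctgagc
GCLC, chr6:53410751-53410780, plus strand: aaatatgtgtTGACAGAGCAatgacctgtc
GCLM, chr1:94375002-94375031, plus strand: tggaagacaaTGACTAAGCAgaaatcgtag
The NQO1 match lay 455 bases before the start on the strand of the gene, and its first 7 letters, TGACTCA, are also those of an AP-1 site. The matches of GCLC and GCLM lay 871 and 35 bases before the start on the opposite strand. A match in letters is a description and no evidence of binding, and the other 7 members can hold such letters outside this window.

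The targeted gene was checked first. N6AMT1 was measured in CAL-29 cells at 11.4, 10.2 and 9.68 CPM (the usual normalised read count relative to library size, with TMM scaling) in siCtrl replicates 1, 2 and 3 and at 2.82, 2.93 and 1.99 CPM with siKMT9α#1. In 5637 cells it was at 13.4, 13.2 and 13.3 CPM in siCtrl and at 3.75, 2.22 and 2.56 CPM with siKMT9α#1. The log2 fold change of N6AMT1 was -2.00 in CAL-29 cells (SE 0.146) and -2.23 in 5637 cells (SE 0.123). Library totals over the 1 row kept per symbol were between 24479348.5 and 35151256.5 counts. Of 13 urothelial and epithelial markers, 12 in CAL-29 and 11 in 5637 siCtrl cells reached 1 CPM, with UPK3A under it in both lines and UPK2 in 5637 cells. The summed level of these markers was lower with siKMT9α#1 in both lines, at 6827 to 6992 CPM against 15301 to 16181 CPM in CAL-29 and at 6568 to 6788 CPM against 10351 to 10833 CPM in 5637 cells. Highly expressed keratins weigh most in this sum, and in CAL-29 cells mean KRT8 went from 4738 to 1735 CPM and KRT17 from 1844 to 223 CPM. Not every marker fell there, as KRT7 went from 77.4 to 94.2 CPM and the groups of GATA3 overlapped. Summed leukocyte markers went from between 6.25 and 8.08 to between 13.1 and 15.0 CPM in CAL-29 cells and from between 3.43 and 3.96 to between 4.92 and 5.40 CPM in 5637 cells, with PTPRC and CD3E under 1 CPM in siCtrl cells of both lines. Of 5 fibroblast markers, all were under 1 CPM in CAL-29 siCtrl cells, and in 5637 cells their sum went from between 56.7 and 63.8 to between 27.5 and 31.7 CPM with DCN and LUM under 1 CPM. Summed endothelial markers went from between 11.4 and 13.7 to between 5.19 and 6.92 CPM in CAL-29 cells and from between 2.57 and 3.19 to between 0.812 and 1.21 CPM in 5637 cells, with PECAM1 under 1 CPM in siCtrl cells of both lines. In CAL-29 cells KDR fell from a mean of 10.8 to 1.70 CPM and CDH5 rose from 0.683 to 3.81 CPM. The endothelial sum there thus followed KDR. In 5637 siCtrl cells THY1 alone had a mean of 59.1 CPM in the scaling of all 12 libraries, most of the fibroblast sum. The part of these shifts in the results that follow was not tested. In bulk RNA, fewer cells that express a gene and less RNA per cell cannot be told apart.

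Control cells of both lines held TXNRD1 and NQO1 as the highest members per transcript length and OSGIN1 as the lowest. On the scale of CPM per kb of transcript (mean ± SD, n = 3), CAL-29 siCtrl cells had 104 ± 1.95 for TXNRD1, the cytosolic thioredoxin reductase, and 61.4 ± 2.11 for NQO1, the quinone reductase that serves as the classical NRF2 target. NFE2L2 followed at 38.2 ± 0.583, then SRXN1 at 26.2 ± 0.684, KEAP1 at 23.1 ± 1.40 and HMOX1 at 15.8 ± 0.702 CPM per kb. The order ended with GCLM at 13.4 ± 0.184, SLC7A11 at 11.9 ± 1.62, GCLC at 10.3 ± 0.586 and OSGIN1 at 6.17 ± 0.381 CPM per kb. Among neighbours in this order, the libraries of GCLM and SLC7A11 overlapped, and the lowest SLC7A11 library, at 10.95 CPM per kb, lay just above the highest of GCLC, at 10.88 CPM per kb.

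In 5637 siCtrl cells the order per length was TXNRD1 at 53.5 ± 0.889, NQO1 at 47.2 ± 0.760, KEAP1 at 37.4 ± 0.934, NFE2L2 at 30.5 ± 0.951 and SRXN1 at 16.7 ± 0.343 CPM per kb. SLC7A11 at 9.19 ± 1.01, GCLC at 8.27 ± 0.321, HMOX1 at 7.39 ± 0.150, GCLM at 2.61 ± 0.143 and OSGIN1 at 1.52 ± 0.0584 CPM per kb followed (SD, n = 3). Only SLC7A11 and GCLC overlapped among neighbours of this order. KEAP1 thus stood above NFE2L2 per length in 5637 cells and below it in CAL-29 cells.

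The control cells of both lines were compared in a joint edgeR model of the 12 libraries. A gene was called a DEG, in every comparison here, at an unadjusted p below 1e-06. At that threshold 8 of the 10 members differed between siCtrl cells of the lines, while 59.8% of all genes tested did. GCLM, the modifier subunit of glutamate-cysteine ligase, was 5.14-fold higher in CAL-29 cells (log2 difference 2.36, SE 0.0578, adjusted p = 9.34e-25), and OSGIN1 was 4.07-fold higher (log2 difference 2.02, SE 0.109). HMOX1 and TXNRD1 were 2.14-fold and 1.95-fold higher in CAL-29 cells, and SRXN1, NQO1 and NFE2L2 had log2 differences of 0.65, 0.38 and 0.32. KEAP1 was the one member higher in 5637 cells, by 1.62-fold (log2 difference -0.69, SE 0.0467, adjusted p = 3.51e-14). GCLC and SLC7A11 had log2 differences of 0.31 and 0.37 and missed the threshold, with unadjusted p-values of 1.22e-05 and 1.28e-05. Both passed with no filter on low counts (0.29 and 0.36), and GCLC also with DESeq2 (0.34).

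With siKMT9α#1, 5 of 10 members rose and none fell as DEGs in CAL-29 cells, where 30.0% of 14673 genes tested were DEGs, 15.0% higher and 15.0% lower. In 5637 cells 3 members rose and 1 fell, where 35.6% of 14335 genes were DEGs, 18.0% higher and 17.6% lower. HMOX1, GCLC and TXNRD1 rose in both lines, NFE2L2 and NQO1 rose in CAL-29 cells, and SRXN1 fell in 5637 cells. The share of all genes that rose in both lines was not counted. At a Benjamini-Hochberg adjusted p below 0.05 from edgeR's quasi-likelihood test, 7 members were higher and 1 lower in CAL-29 cells and 5 were higher and 1 lower in 5637 cells. The shares of all genes past that threshold were 69.5% in CAL-29 and 70.7% in 5637 cells, so these member counts are near the background. Libraries of siCtrl and siKMT9α#1 did not overlap for 8 members in CAL-29 cells and for 7 in 5637 cells, again near the shares of all genes, 72.3% and 72.4%. The median log2 fold change of the members was 0.27 in CAL-29 and 0.10 in 5637 cells, beside -0.016 and -0.0055 over all genes tested.

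**Figure D1:**
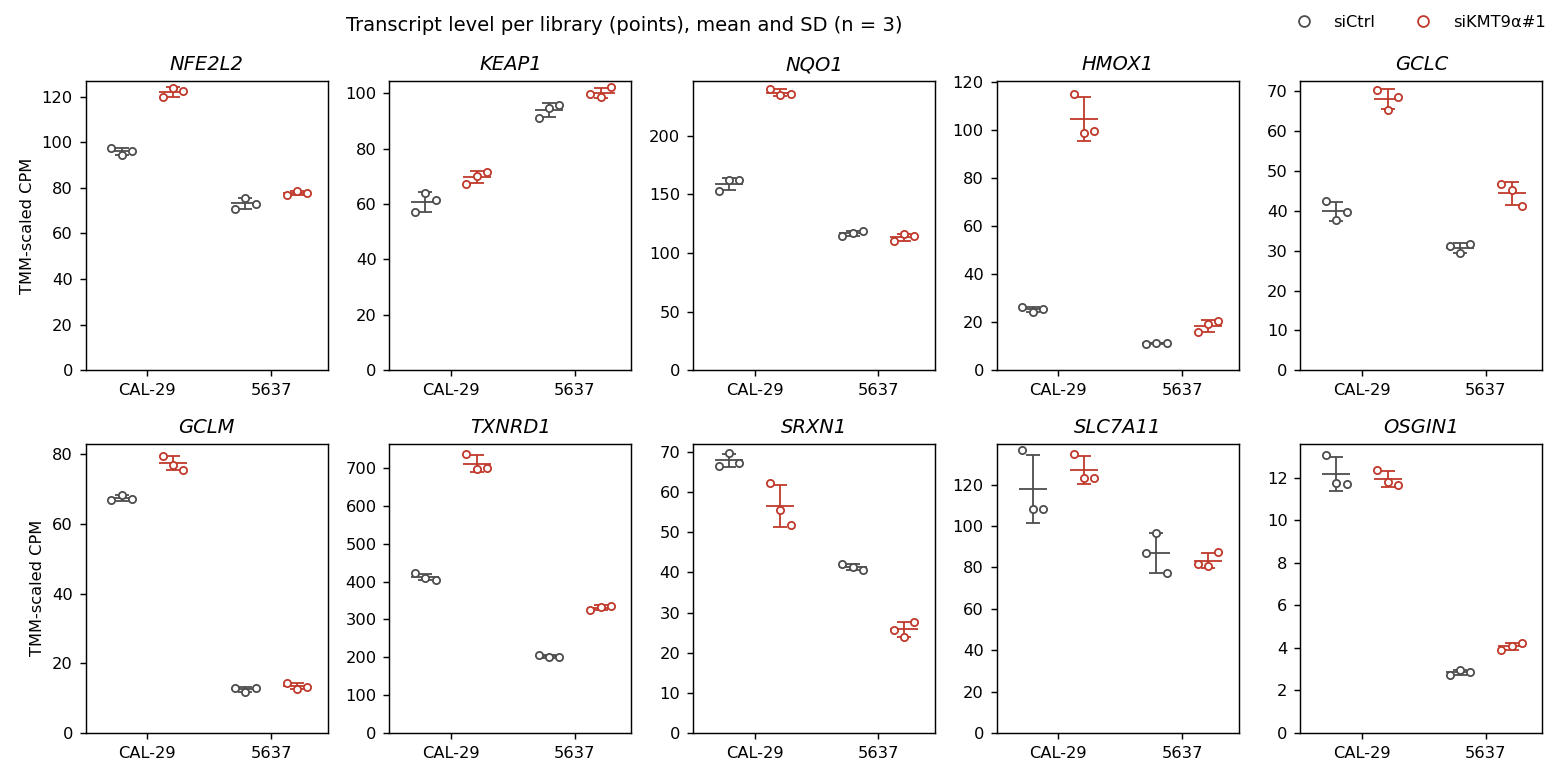
Transcript level of each member in every library, as TMM-scaled CPM on a linear axis from 0, for siCtrl (grey) and siKMT9α#1 (red) in CAL-29 and 5637 cells, with a line for the mean and bars for the SD of 3 libraries. HMOX1, GCLC and TXNRD1 separate in both lines, NQO1 separates in CAL-29 cells alone, and SLC7A11 overlaps in both.

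NFE2L2 (chr2:178083395-178257484, minus strand, GRCh37) was measured in CAL-29 cells at 97.6, 94.3 and 96.1 CPM in the siCtrl libraries and at 119.8, 124 and 122 CPM with siKMT9α#1. Every siKMT9α#1 library lay above every siCtrl library, and the log2 fold change was 0.35 (SE 0.0455, 95% interval 0.25 to 0.44, adjusted p = 8.99e-07). This call rested on all but 2 of the libraries: its unadjusted p from edgeR's quasi-likelihood test was 2.35e-07 with all 6 and missed 1e-06 when siCtrl replicate 2 (7.72e-06) or siKMT9α#1 replicate 1 (1.86e-06), 2 (8.14e-06) or 3 (7.24e-06) was left out, with log2 fold changes between 0.34 and 0.36. In 5637 cells the gene stood at 70.8, 75.6 and 72.9 CPM in siCtrl and at 76.7, 78.6 and 77.7 CPM with siKMT9α#1. The groups did not overlap there either, by a smaller margin, and the log2 fold change was 0.087 (SE 0.0396, 95% interval 0.006 to 0.17, adjusted p = 0.0511). In the annotation, 24.8% of the exon bases of NFE2L2 lie over exons of the other strand, and the strand that the default counting settings use was not examined here, so reads of such a partner could be included. Exons annotated to another gene on the same strand cover 13.6% of the NFE2L2 exon bases, where reads of both cannot be told apart.

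KEAP1 (chr19:10596801-10614234, minus strand), which targets NRF2 for degradation, had 57.0, 64.1 and 61.3 CPM in CAL-29 siCtrl libraries and 67.2, 70.1 and 71.7 CPM with siKMT9α#1. The log2 fold change of 0.20 (SE 0.0544, adjusted p = 0.00334) passed the adjusted threshold and was no DEG. KEAP1 in 5637 cells was at 91.1, 94.8 and 95.8 CPM in siCtrl and at 99.7, 98.7 and 102 CPM with siKMT9α#1, a log2 fold change of 0.093 (SE 0.037, adjusted p = 0.0263). The groups of KEAP1 did not overlap in either line, and factor and inhibitor thus both had positive fold changes, of which that of NFE2L2 in CAL-29 cells alone was past 1e-06.

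HMOX1 had the largest response of the 10 members in CAL-29 cells. HMOX1 (chr22:35776354-35790207, plus strand) encodes heme oxygenase, which degrades heme to biliverdin, iron and carbon monoxide and is repressed by BACH1. In CAL-29 cells it was at 26.4, 24.0 and 25.5 CPM in siCtrl and at 115, 98.6 and 99.7 CPM with siKMT9α#1, a 4.13-fold higher mean (log2 fold change 2.05, SE 0.0655, adjusted p = 2.26e-16). The lowest siKMT9α#1 library was far above the highest siCtrl library. In 5637 cells the values were 11.0, 11.5 and 11.3 CPM in siCtrl and 15.8, 19.2 and 20.4 CPM with siKMT9α#1, a 1.64-fold higher mean (log2 fold change 0.71, SE 0.0833, adjusted p = 1.11e-08). Per transcript length, HMOX1 went from the 6th to the 3rd place among the members in CAL-29 cells, at 66.3 ± 5.81 CPM per kb, and from the 8th to the 5th in 5637 cells, at 12.1 ± 1.56 CPM per kb (SD, n = 3), where its libraries overlapped those of GCLC.

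NQO1 (chr16:69740899-69760571, minus strand) reduces quinones by a transfer of a pair of electrons and was the member whose promoter window held the motif on its own strand. In CAL-29 siCtrl libraries it was at 153, 162 and 162 CPM, and with siKMT9α#1 at 240.2, 235 and 235 CPM. The log2 fold change was 0.57 (SE 0.0457, adjusted p = 5.36e-10), with no overlap of the groups. In 5637 cells NQO1 had 115, 117 and 119 CPM in siCtrl and 110.2, 116 and 114 CPM with siKMT9α#1. These groups overlapped, and the log2 fold change was -0.040 (SE 0.0357, 95% interval -0.11 to 0.033, adjusted p = 0.322). Exons of the other strand cover 19.4% of the NQO1 exon bases.

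GCLC and GCLM, the catalytic and the modifier subunit of the enzyme for the first step of glutathione synthesis, were a DEG in both lines and in neither line, respectively. GCLC (chr6:53362139-53481768, minus strand) was at 42.4, 37.7 and 39.6 CPM in CAL-29 siCtrl and at 70.3, 65.3 and 68.5 CPM with siKMT9α#1, a 1.70-fold higher mean (log2 fold change 0.77, SE 0.0574, adjusted p = 1.95e-10). In 5637 cells GCLC had 31.1, 29.4 and 31.6 CPM in siCtrl and 46.8, 45.2 and 41.2 CPM with siKMT9α#1, with a log2 fold change of 0.53 (SE 0.054, adjusted p = 8.04e-10). The groups of GCLC were apart in both lines. GCLM (chr1:94350755-94375012, minus strand) was at 66.7, 68.2 and 67.0 CPM in CAL-29 siCtrl and at 79.6, 76.9 and 75.6 CPM with siKMT9α#1, a log2 fold change of 0.20 (SE 0.0486, adjusted p = 0.00103) that was no DEG. In 5637 cells GCLM had 12.9, 11.7 and 12.8 CPM in siCtrl and 14.3, 12.6 and 13.3 CPM with siKMT9α#1, and the groups overlapped (log2 fold change 0.099, 95% interval -0.063 to 0.26, adjusted p = 0.265). The 95% intervals of the log2 fold changes of GCLC and GCLM did not meet in either line, and the difference between these genes was not tested.

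SLC7A11 (chr4:139085251-139163503, minus strand) encodes the cystine importer subunit that supplies cysteine for glutathione and is a target of both NRF2 and ATF4. In CAL-29 cells it was at 137, 108.4 and 108.4 CPM in siCtrl and at 135, 123 and 123 CPM with siKMT9α#1. The siCtrl replicate 1 library exceeded all siKMT9α#1 libraries, so the groups overlapped, with a log2 fold change of 0.11 (SE 0.0695, 95% interval -0.036 to 0.25, adjusted p = 0.167). In 5637 cells the gene was at 87.1, 96.4 and 77.2 CPM in siCtrl and at 81.6, 80.5 and 87.4 CPM with siKMT9α#1, and the log2 fold change was -0.060 (SE 0.0531, 95% interval -0.17 to 0.049, adjusted p = 0.320). These intervals leave room for small changes in either direction.

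TXNRD1 and SRXN1 act on the thiol side of the response, and their log2 fold changes had opposite signs in both lines. TXNRD1 (chr12:104609557-104744085, plus strand), which reduces thioredoxin with NADPH, was at 422, 410.1 and 405 CPM in CAL-29 siCtrl and at 738, 698 and 699.6 CPM with siKMT9α#1, a 1.73-fold higher mean (log2 fold change 0.79, SE 0.0476, adjusted p = 6.40e-12). In 5637 cells it was at 206, 200.4 and 200.7 CPM in siCtrl and at 324, 333 and 336 CPM with siKMT9α#1, a 1.64-fold higher mean (log2 fold change 0.71, SE 0.0318, adjusted p = 7.72e-18). TXNRD1 was the highest member in every library, and its groups were far apart in both lines.

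SRXN1 (chr20:627259-633844, minus strand), sulfiredoxin, restores overoxidised peroxiredoxins. It was at 66.7, 69.8 and 67.3 CPM in CAL-29 siCtrl and at 62.2, 55.7 and 51.9 CPM with siKMT9α#1, a log2 fold change of -0.26 (SE 0.0603, adjusted p = 0.000679) that was no DEG. In 5637 cells SRXN1 fell from 42.1, 41.4 and 40.5 CPM to 25.8, 24.0 and 27.7 CPM, to 0.625 of the siCtrl mean (log2 fold change -0.68, SE 0.0555, adjusted p = 8.94e-12). The groups were apart in both lines, with siKMT9α#1 below. Another annotated gene on the same strand covers 90.7% of the exon bases of SRXN1, so reads of both cannot be told apart.

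OSGIN1 (chr16:83964916-83999937, plus strand), oxidative stress induced growth inhibitor, was the lowest member. In CAL-29 cells it was at 13.1, 11.8 and 11.7 CPM in siCtrl and at 12.4, 11.8 and 11.7 CPM with siKMT9α#1, with a log2 fold change of -0.026 (SE 0.0933, 95% interval -0.22 to 0.17, adjusted p = 0.818). In 5637 cells it was at 2.73, 2.95 and 2.89 CPM in siCtrl and at 3.90, 4.10 and 4.23 CPM with siKMT9α#1, from a mean of 105 counts per library. The groups were apart in 5637 cells, and the log2 fold change of 0.51 (SE 0.138, adjusted p = 0.00158) passed the adjusted threshold but was no DEG.

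**Figure D2:**
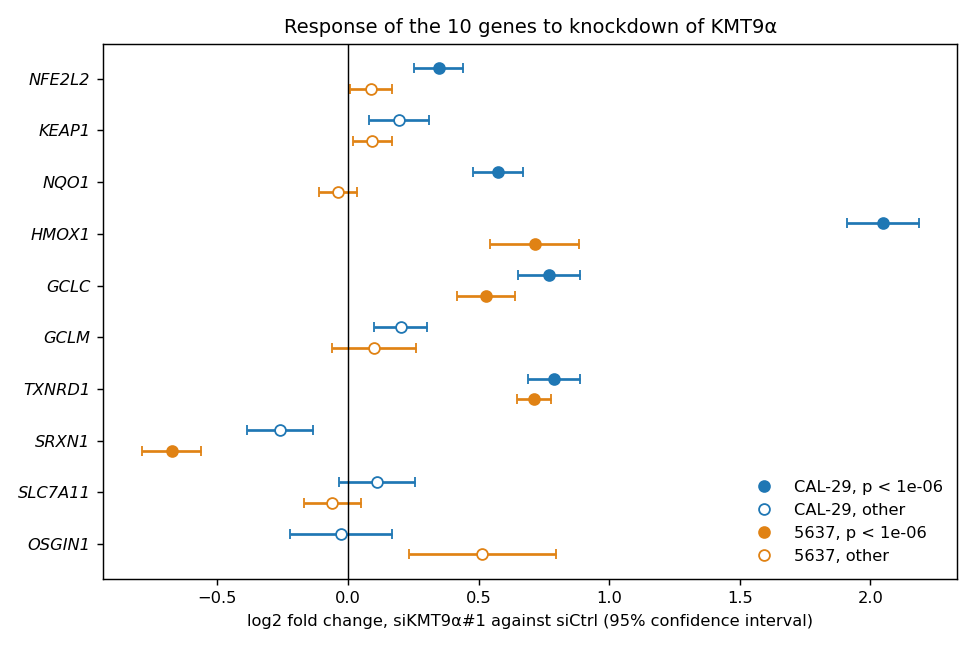
Log2 fold change of each member, siKMT9α#1 against siCtrl, in CAL-29 (blue) and 5637 (orange) cells with 95% confidence intervals from edgeR's quasi-likelihood fit. Filled points have an unadjusted p below 1e-06, and HMOX1 in CAL-29 cells, at 2.05, stands farthest from 0.

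The difference in response between the lines was tested with the interaction of line and siRNA over the 12 libraries, and 2 of 10 members passed 1e-06, where 15.7% of 15395 genes did. The log2 fold change of HMOX1 was larger in CAL-29 cells by 1.35 (SE 0.110, adjusted p = 2.51e-11), and that of NQO1 by 0.63 (SE 0.056, adjusted p = 1.64e-10). SRXN1 (0.43, adjusted p = 0.000104), NFE2L2 (0.28, adjusted p = 0.000223) and GCLC (0.26, adjusted p = 0.00874) had higher log2 fold changes in CAL-29 cells at the adjusted threshold only, and OSGIN1 a lower one (-0.52, adjusted p = 0.00582). Scaled by total counts, NFE2L2 (0.39) and SRXN1 (0.55) also passed 1e-06, as did SRXN1 with no filter on low counts (0.44). The other 4 members did not pass, with differences of 0.12 for KEAP1 (95% interval -0.016 to 0.25), 0.12 for GCLM (-0.053 to 0.29), 0.092 for TXNRD1 (-0.021 to 0.21) and 0.19 for SLC7A11 (-0.017 to 0.39). For TXNRD1, whose log2 fold changes were 0.79 and 0.71, the interval thus allows a difference of up to 0.21 between the lines.

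The siRNA strands can act on other transcripts through the seed, bases 2 to 8 of the guide. A site complementary to the seed of siKMT9α#1, ACATTCA, was present once in the 3′ UTR of SRXN1 and once in that of SLC7A11, which is 2 of 10 members, and in 13.4% of 18332 genes. The site of the siCtrl guide, ACGCAAA, was in no member and in 1.74% of the genes. SRXN1, with a site, fell in 5637 cells, and SLC7A11, with a site, passed no threshold in either line. The part of the seed in these values was not tested, and with a single siRNA against KMT9α the effects of depletion and of the siRNA sequence cannot be told apart.

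Beyond the members, 81 genes of 6 lists around the pathway were counted, of which 80 could be tested in CAL-29 and 79 in 5637 cells. As DEGs, 35 of them were higher and 6 lower in CAL-29 cells (median log2 fold change 0.34), where 15.0% of all genes were higher and 15.0% lower. The counts in 5637 cells were 18 higher and 14 lower (median 0.047), near the 18.0% and 17.6% of all genes. As shares of the genes tested, 51.2% of these lists were DEGs in CAL-29 and 40.5% in 5637 cells, beside 30.0% and 35.6% of all genes. Of 78 genes tested in both lines, 13 rose in both, among them PIR, SOD2, TXNIP, NFE2L3, TKT and GGCT, and GPX8 and EPHX1 fell in both. The share of all genes called in both lines was not counted, so whether these counts exceed it cannot be told. Opposite calls were made for the glutathione transferase MGST1, with log2 fold changes of 0.85 in CAL-29 and -0.74 in 5637 cells, and the exporter ABCC4, with 0.63 and -0.44, which are named after their values were seen. With its second transcript row, ABCC4 missed the threshold in CAL-29 cells (log2 fold change 0.65). The interaction test gave 29 of 81 genes a higher log2 fold change in CAL-29 cells and 6 a lower one at 1e-06, beside 15.7% of all genes in either direction.

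Regulators and partners of NRF2 numbered 14, with 3 DEGs higher and 1 lower in CAL-29 cells and 7 higher and 1 lower in 5637 cells, and median log2 fold changes of 0.18 and 0.27. This was 28.6% of the list in CAL-29, under the 30.0% of all genes, and 57.1% in 5637 cells, against 35.6% of all genes. NFE2L3, a relative of NRF2, rose from 22.8 ± 2.49 to 64.4 ± 2.32 CPM in CAL-29 and from 61.5 ± 2.28 to 110 ± 1.73 CPM in 5637 cells (SD, n = 3). The small MAF proteins pair with NRF2. MAFF rose in both lines, with log2 fold changes of 0.62 (SE 0.0734) and 0.45 (SE 0.0365), and its call in CAL-29 cells was lost without siKMT9α#1 replicate 1 (0.55) or 3 (0.65). MAFK fell in CAL-29 cells from 252 ± 5.81 to 127 ± 2.79 CPM (log2 fold change -0.99, SE 0.0457) and had a log2 fold change of -0.056 in 5637 cells (SE 0.0429, adjusted p = 0.243). MAFG rose in 5637 cells from 95.7 ± 4.14 to 156 ± 3.80 CPM (log2 fold change 0.71, SE 0.0373) and had one of 0.042 in CAL-29 cells (SE 0.047, adjusted p = 0.440). GSK3B, a kinase that marks NRF2 for KEAP1-independent degradation, rose in 5637 cells with a log2 fold change of 0.64. BACH1, the repressor of HMOX1 and named after its values were seen, fell as a DEG in 5637 cells (log2 fold change -0.36). Its log2 fold change in CAL-29 cells was -0.21, no DEG. The part of BACH1 in the HMOX1 values was not tested.

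The 27 glutathione genes included 12 DEGs higher and 2 lower in CAL-29 cells (median log2 fold change 0.39), and the 26 tested in 5637 cells 3 higher and 5 lower (median -0.021). These were 51.9% and 30.8% of the genes tested, the latter under the 35.6% of all genes in 5637 cells. GGCT, an enzyme of glutathione turnover, rose in CAL-29 cells from 57.9 ± 4.77 to 121 ± 4.14 CPM (log2 fold change 1.06). Glutaredoxin GLRX and the conjugate exporter ABCC2 had log2 fold changes of 1.36 and 1.32 in CAL-29 cells, with siKMT9α#1 means of 9.89 and 7.71 CPM. In 5637 cells GSTK1, a mitochondrial and peroxisomal glutathione transferase, fell from 67.8 ± 1.79 to 30.7 ± 0.778 CPM (log2 fold change -1.15), and the peroxidase GPX8 fell with a log2 fold change of -0.83.

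Among 10 thioredoxin and peroxiredoxin genes, DEGs in CAL-29 cells were 4 higher and none lower, and those in 5637 cells 3 higher and 1 lower (median log2 fold changes 0.16 and 0.11). The share called was 40% in each line, beside 30.0% and 35.6% of all genes. TXN, the substrate of TXNRD1, rose from 99.5 ± 7.52 to 172 ± 8.44 CPM in CAL-29 cells and rose with a log2 fold change of 0.28 in 5637 cells, a call that the joint fit of all 12 libraries did not make (0.29). PRDX1, another of the 3 in 5637 cells and named after its values were seen, also missed the threshold in the joint fit (0.23), with total counts (0.18) and without siCtrl replicate 1 (0.21) or siKMT9α#1 replicate 2 (0.22) or 3 (0.23). TXNIP, which binds and inhibits thioredoxin, rose with log2 fold changes of 1.15 and 1.20 in the same order. PRDX2 fell in 5637 cells from 248 ± 5.12 to 155 ± 9.98 CPM (log2 fold change -0.68, SE 0.0382).

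The 7 genes of NADPH supply included 5 that rose and 1 that fell in CAL-29 cells (median log2 fold change 0.66), and 1 that rose in 5637 cells (median 0.10). The shares called were 85.7% and 14.3%, beside 30.0% and 35.6% of all genes. IDH1, cytosolic isocitrate dehydrogenase, rose in CAL-29 cells from 141 ± 4.52 to 298 ± 10.7 CPM, whereas mitochondrial IDH2 fell from 103 ± 9.38 to 59.0 ± 3.29 CPM. Transketolase TKT rose in both lines, with log2 fold changes of 0.84 and 0.40.

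Detoxification, heme and iron genes showed 10 DEGs higher and 1 lower of 18 tested in CAL-29 cells (median log2 fold change 0.71), against 3 higher and 5 lower of 18 in 5637 cells (median -0.10). The shares called were 61.1% and 44.4%, beside 30.0% and 35.6% of all genes, and the 3 higher in 5637 cells are near the 18.0% of all genes. PIR, an iron-binding nuclear protein, rose from 1.52 ± 0.224 to 9.50 ± 0.375 CPM in CAL-29 and from 7.93 ± 0.470 to 25.6 ± 1.36 CPM in 5637 cells. The aldo-keto reductases AKR1C1 and AKR1C2 rose in CAL-29 cells with log2 fold changes of 1.77 and 2.18, and as near-identical copies they share reads, so their split is uncertain. EPHX1, microsomal epoxide hydrolase, fell in both lines, with log2 fold changes of -0.84 and -0.83. FECH, which inserts iron into protoporphyrin to form heme, fell in 5637 cells with a log2 fold change of -0.81.

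Of 4 superoxide and peroxide enzymes, CAL-29 cells had 1 DEG higher and 1 lower and 5637 cells 1 higher and 2 lower (median log2 fold changes 0.33 and -0.62), where 30.0% and 35.6% of all genes were DEGs. SOD2, the mitochondrial superoxide dismutase, rose from 25.2 ± 0.691 to 129 ± 7.33 CPM in CAL-29 and from 216 ± 8.51 to 417 ± 13.6 CPM in 5637 cells. SOD3, the secreted form, fell in CAL-29 cells with a log2 fold change of -1.69. In 5637 cells, SOD1 and catalase CAT fell with log2 fold changes of -0.51 and -0.74.

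Because SLC7A11 also answers to ATF4, the factor of the amino acid and endoplasmic reticulum stress response, 7 genes of that response were counted beside them. None was higher and 3 were lower as DEGs in CAL-29 cells, against 4 higher and 1 lower in 5637 cells (median log2 fold changes 0.064 and 0.34), where DEGs were 30.0% and 35.6% of all genes. SESN2 and ASNS fell in CAL-29 cells with log2 fold changes of -0.85 and -0.48. At an adjusted p below 0.05, 3 of the 7 were higher and 3 lower in CAL-29 cells, where 69.5% of all genes passed. The 3 higher were DDIT3, TRIB3 and ATF4, with log2 fold changes of 0.29, 0.28 and 0.15. DDIT3 rose in 5637 cells from 12.6 ± 0.419 to 36.3 ± 0.524 CPM, ATF4 from 417 ± 17.5 to 610.4 ± 13.03 CPM and TRIB3 from 51.1 ± 5.19 to 81.0 ± 2.43 CPM. At 1e-06 the interaction test gave 3 of these 7 genes a lower log2 fold change in CAL-29 cells and none a higher one. In either direction, 15.7% of all genes passed that threshold. ASNS (-0.44), TRIB3 (-0.37) and PSAT1 (-0.26) had lower log2 fold changes in CAL-29 cells at the adjusted threshold only, and PHGDH differed by 0.0535.

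The genes whose pattern over the 12 libraries was most like that of NFE2L2, by Pearson correlation of log2 CPM centred on the mean of each line over 13673 genes, were WRNIP1 (0.992), OIP5 (0.990) and PSME2 (0.989). By the same measure the members ranged from 0.976 for HMOX1, which ranked 95th of all genes, through 0.929 for NQO1, 0.901 for GCLC, 0.864 for TXNRD1 and 0.854 for KEAP1 to 0.232 for OSGIN1 and -0.55 for SRXN1. These correlations are across 12 libraries that share a knockdown, a depth and a scaling, and they describe the order only.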

How the data were processed

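RNAseq libraries of CAL-29 and 5637 cells (3 siCtrl and 3 siKMT9α#1 per line) were analysed. Per the labels and the paper's methods, the authors aligned reads to hg19 with STAR and counted them per RefSeq transcript with HOMER's analyzeRepeats at its defaults, and they tested with edgeR. The strand used by those defaults was not examined here. The deposited tables hold estimated counts without normalization in steps of 0.5, for 37400 transcript rows. The authors' own p-value and fold change columns entered no analysis, and 0 columns of per-sample values were unmapped. Groups and replicate numbers came from the sample titles.

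One row per symbol, that with the most counts, was kept and rounded. In edgeR 4.0.16 (R 4.3.3), libraries were scaled by TMM and filtered with filterByExpr, and each line was fitted alone with the quasi-likelihood test over all genes, with Benjamini-Hochberg adjustment. The 12-library model gave the comparisons between lines. A DEG had an unadjusted p below 1e-06, after the study's methods. SE was the absolute log2 fold change divided by the square root of F. The fit was tested on simulated data. With 3 against 3 libraries an exact permutation test cannot go below 0.1. Replicates differed by more than sampling noise (chi-square per degree of freedom 2.25 to 12.4). The biological coefficient of variation was 5.09% in CAL-29 and 3.34% in 5637 cells. Replicate spread thus limits precision beside depth, and depth weighs more for genes with few counts. Positions, transcript lengths and sequences came from GENCODE v44lift37 and the GRCh37 genome, the assembly of hg19 (Python 3.11.15). CPM per kb divides the joint-scaled CPM by the MANE transcript length.

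The members, the lists and the rules were chosen with earlier results of these data known. Named list genes were, per line, the 4 highest and 4 lowest log2 fold changes among DEGs averaging 50 counts or more, and up to 3 per list with the largest absolute change. Alternatives were total-count and RLE scaling, other filters, DESeq2 1.42.0, the replicate number as a block, the second transcript row, unrounded counts, other thresholds, a joint fit and each library left out.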

Additional observations from a re-analysis of the deposited data

Results flagged for a closer look

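The log2 fold changes of 26 named genes differed between the lines at an unadjusted p below 1e-06 in the interaction test, given here as CAL-29 minus 5637. Among the members these were HMOX1 (1.35) and NQO1 (0.63). Of the regulators, NFE2L3 differed by 0.69, MAFG by -0.65, MAFK by -0.92 and GSK3B by -0.46. Of the named glutathione genes, GGCT differed by 0.63, GLRX by 1.09, MGST1 by 1.61, GSTK1 by 0.83 and ABCC4 by 1.08. Over all 27 glutathione genes, 8 passed with a higher log2 fold change in CAL-29 cells and 2 with a lower one. Those 2, SLC3A2 (-0.90) and CHAC1 (-0.64), are outside the 26. TXN differed by 0.52, PRDX1 by 0.41, PRDX2 by 0.86 and PRDX6 by 0.60. For NADPH supply, TKT differed by 0.44, IDH1 by 1.02 and IDH2 by -0.70. AKR1C1 differed by 1.46 and FECH by 0.72, and the superoxide and peroxide enzymes SOD1, SOD2 and CAT by 0.77, 1.43 and 1.16. The ATF4 response had differences of -0.38 for ATF4, -1.23 for DDIT3 and -0.87 for SESN2. The difference of GLRX missed 1e-06 without CAL-29 siCtrl replicate 3, CAL-29 siKMT9α#1 replicate 1 or 2, 5637 siCtrl replicate 3 or 5637 siKMT9α#1 replicate 3 (0.95 to 1.21 over all left-out libraries). That of AKR1C1 missed it without 5637 siCtrl replicate 3 (1.38), and that of ATF4 without any 1 library except CAL-29 siCtrl replicate 1 and 5637 siCtrl replicate 2 (-0.41 to -0.35). Scaled by total counts, the differences of GSK3B (-0.34) and ATF4 (-0.26) also missed it. The lines differed in culture medium, transfection reagent and siRNA concentration, which cannot be told apart from the line.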

How the results depend on the processing

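Members called at p below 1e-06 numbered 5 in CAL-29 and 4 in 5637 cells. At an adjusted p below 0.05 the CAL-29 count was 8, and with a log2 fold change of 1 or more in either direction it was 1 in CAL-29 and 0 in 5637 cells. The wider lists went from 41 to 70 and 11 in CAL-29 and from 32 to 60 and 4 in 5637 cells under the same thresholds. The 2 members whose response differed between lines became 4 with total counts, 6 at the adjusted threshold, 1 with the fold limit and 1 with glmTreat against a 1.5-fold difference, and the 8 that differed between siCtrl cells became 3 with the fold limit, 10 at the adjusted threshold, 10 with no filter on low counts and 9 with DESeq2. Signs turned for OSGIN1 in CAL-29 cells with total counts (0.054) and without CAL-29 siCtrl replicate 1 (0.030, in a range of -0.049 to 0.030 over the left-out libraries), and for SLC7A11 in 5637 cells without siCtrl replicate 2 (0.021, in a range of -0.14 to 0.021), none of them called. Leaving out each library gave 4 to 5 members in CAL-29, 4 in 5637, 32 to 48 and 28 to 34 genes of the wider lists, 2 members for the response difference and 8 for the siCtrl contrast. Calls near 1e-06 that some left-out libraries ended were those of NFE2L2, MAFF, PHGDH, CREBBP, GPX4 and FTL in CAL-29, of GPX3, GPX4, PRDX1 and FTL in 5637 cells, and the differences of GLRX, AKR1C1 and ATF4, with fewer samples in each such fit. Titles number the replicates alike in both groups, and the deviations of same-numbered libraries correlated at -0.014 to 0.149. The highest values were those of replicate 1, at 0.149 in CAL-29 and 0.133 in 5637 cells. Whether the numbers pair the libraries cannot be told from these values. With the replicate block, 5 and 4 members were called in CAL-29 and 5637 cells, 51 and 33 genes of the wider lists, 2 members for the response difference and 9 for the siCtrl contrast, where SLC7A11 was added. Depth limits OSGIN1 most, at 105 counts per library in 5637 cells.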
